A study of Arabidopsis thaliana with 357 samples.

Results

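The 9 genes described here encode plant U-box (PUB) E3 ubiquitin ligases of Arabidopsis with known or proposed parts in immunity: PUB12 (AT2G28830), PUB13 (AT3G46510), PUB20 (AT1G66160, CMPG1 in RefSeq), PUB21 (AT5G37490), PUB22 (AT3G52450), PUB23 (AT2G35930), PUB24 (AT3G11840), PUB25 (AT3G19380) and PUB26 (AT1G49780). They were taken by their AGI codes, a rule that uses no measured value although it was drawn up with earlier results of these data known, and are 9 of the 33600 genes in the read count table. Their transcript levels were followed by Tag-Seq, in which 1 tag is read near the 3′ end of each messenger RNA, in leaves of 17 genotypes, untreated (0 h) and 1, 2, 3, 5, 9 or 18 h after treatment, with 3 replicates per genotype and time (119 groups, 357 libraries). Leaves of 31 to 32 days old plants were infiltrated with 1 µM flg22, a peptide of bacterial flagellin, and the 0 h leaves were not infiltrated. All genotypes were in the Col-0 background.

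The fls2 line carries a T-DNA insertion (SAIL_691_C4) in the gene of the flg22 receptor, and all of its signalling sectors are otherwise intact. The other 16 genotypes are all combinations of mutated and intact alleles at 4 loci, each standing for 1 signalling sector: dde2-2 for jasmonate (J), which lacks allene oxide synthase, ein2-1 for ethylene (E), pad4-1 for PAD4 (P), and sid2-2 for salicylic acid (S), which lacks isochorismate synthase. A genotype is named by the 4 letters, in lower case for a mutated sector and in upper case for an intact one, so that jeps is the quadruple mutant and JEPS the wild type. Each replicate pooled 12 leaves from 4 independent experiments, and different plants were used at each time. The 1 to 5 h leaves were harvested at similar times of the day, whereas 0, 9 and 18 h fell at others, so that within a genotype a difference from 0 h cannot be told apart from infiltration or time of day. As in all bulk leaf samples, fewer cells of a type and less RNA per cell cannot be told apart.

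A U-box ligase brings a ubiquitin-conjugating enzyme to a substrate, and the ubiquitin chain it helps to build often marks that substrate for the proteasome. PUB22, PUB23 and PUB24 dampen signalling from pattern recognition receptors, and PUB22 targets the exocyst subunit EXO70B2 and is itself phosphorylated by the kinase MPK3. PUB12 and PUB13 are recruited by the co-receptor BAK1 and ubiquitinate FLS2, the flg22 receptor. PUB25 and PUB26 ubiquitinate BIK1, the cytoplasmic kinase that acts directly downstream of the receptor complex, and the kinase CPK28 promotes that activity. PUB20 and PUB21 are related to parsley and tobacco ligases of the CMPG type, which were first described as rapidly induced by elicitors.

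The promoters of PUB20 to PUB24 are shown because each of these 5 genes passed the test between JEPS and fls2 at 1, 2, 3 and 5 h, with more transcript in JEPS. Each line is the 300 bases before the annotated start in TAIR10.1, read 5′ to 3′ on the strand of the gene. Capitals mark TTGAC or its reverse complement GTCAA (the W-box core, known to be bound by WRKY transcription factors), CGCGTT (bound by CAMTA factors), GCCGCC (bound by ethylene response factors) and CACGTG (the G-box), each searched on both strands.
PUB22 (chr3:19442428-19442727, minus strand): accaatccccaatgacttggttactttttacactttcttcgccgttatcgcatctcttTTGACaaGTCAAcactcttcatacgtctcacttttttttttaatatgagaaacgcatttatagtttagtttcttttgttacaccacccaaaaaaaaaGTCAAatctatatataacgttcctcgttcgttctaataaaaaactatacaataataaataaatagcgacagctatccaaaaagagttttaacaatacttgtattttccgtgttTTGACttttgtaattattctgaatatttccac
PUB23 (chr2:15084560-15084859, minus strand): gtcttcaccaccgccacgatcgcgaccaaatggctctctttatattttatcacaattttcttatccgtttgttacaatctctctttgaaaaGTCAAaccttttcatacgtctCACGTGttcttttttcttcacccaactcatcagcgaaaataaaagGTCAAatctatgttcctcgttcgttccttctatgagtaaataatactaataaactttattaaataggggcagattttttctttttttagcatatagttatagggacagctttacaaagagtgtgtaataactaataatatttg
PUB24 (chr3:3738209-3738508, minus strand): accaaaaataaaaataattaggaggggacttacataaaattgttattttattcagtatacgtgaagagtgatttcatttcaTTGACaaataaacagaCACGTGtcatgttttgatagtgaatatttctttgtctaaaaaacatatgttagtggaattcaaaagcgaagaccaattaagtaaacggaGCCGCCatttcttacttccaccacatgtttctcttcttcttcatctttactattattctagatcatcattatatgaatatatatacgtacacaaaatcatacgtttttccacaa
PUB20 (chr1:24636896-24637195, plus strand): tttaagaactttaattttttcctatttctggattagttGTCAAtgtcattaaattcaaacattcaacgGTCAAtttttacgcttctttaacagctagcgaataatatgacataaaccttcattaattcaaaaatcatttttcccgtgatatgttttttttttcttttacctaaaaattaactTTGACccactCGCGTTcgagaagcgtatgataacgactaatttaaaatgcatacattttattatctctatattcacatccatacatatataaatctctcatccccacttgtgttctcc
PUB21 (chr5:14887129-14887428, plus strand): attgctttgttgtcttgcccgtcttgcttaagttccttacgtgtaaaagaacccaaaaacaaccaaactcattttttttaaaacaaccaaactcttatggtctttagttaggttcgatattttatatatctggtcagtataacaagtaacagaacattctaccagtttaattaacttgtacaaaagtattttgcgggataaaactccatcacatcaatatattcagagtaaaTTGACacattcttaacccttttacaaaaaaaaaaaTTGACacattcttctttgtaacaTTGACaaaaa

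The PUB22 window held 4 copies of TTGAC, at 242, 235, 145 and 32 bases before the start, of which the first 2 are separated by 2 bases and point in opposite directions. The PUB20 and PUB21 windows held 3 copies each, the PUB23 window 2 and the PUB24 window 1. Over 27443 promoters of the same length, 50.4% held at least 1 copy, 17.9% at least 2, 5.07% at least 3 and 1.16% at least 4. PUB20 also held CGCGTT (3.08% of all promoters), PUB24 held GCCGCC (2.26%), and PUB23 and PUB24 each held CACGTG (7.09%). The windows of PUB25 and PUB12 held 2 copies and 1 copy of TTGAC, and those of PUB13 and PUB26 held none of the motifs. A match is a description of the letters in the window and not evidence of binding.

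PUB22 lies on chromosome 3 at 19440617 to 19442427 in a single exon and encodes 435 amino acids. PUB23 is a single-exon gene of 411 amino acids on chromosome 2 (15082855 to 15084559), and PUB24 has 2 exons and 456 amino acids on chromosome 3 (3736578 to 3738208). PUB20 (chromosome 1, 24637196 to 24638608) and PUB21 (chromosome 5, 14887429 to 14889151) encode 431 and 435 amino acids. PUB25 (chromosome 3, 6714133 to 6716178) and PUB26 (chromosome 1, 18428788 to 18430497) are single-exon genes that encode 421 amino acids each. PUB12 (chromosome 2, 12368220 to 12370420) and PUB13 (chromosome 3, 17123731 to 17126897) have 4 exons each and encode the longest proteins, of 582 and 660 amino acids. Several members are close paralogs, and only reads that mapped to 1 gene were counted, so reads shared between paralogs are missing from these counts.

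Libraries held between 372525 and 5130803 counted reads, with a median of 1275620. Levels are given as normalized counts, i.e. reads scaled so that the 90th percentile gene of every library had 300. PUB22 and PUB23 had median counts of 405 and 387 reads per library, PUB20 93, PUB13 57 and PUB24 44. PUB25 had a median of 8 reads, PUB12 and PUB26 5 each, and PUB21 4 with 109 libraries at 0. Only the first 5 of these members passed the filter on low counts, along with 11848 genes in all, and the other 4 were tested in a fit of all 26275 genes with reads. The mutated loci followed the labels in medians over libraries: DDE2 was at 59.1 in dde2-2 against 1900 in intact genotypes, EIN2 at 48.6 in ein2-1 against 145, PAD4 at 25.9 in pad4-1 against 273, SID2 at 7.86 in sid2-2 against 362, and FLS2 at 7.59 in fls2 against 130. The leaf mesophyll genes RBCS1A, LHCB1.3, RCA and CA1 were detected in all 357 libraries, whereas the root hair genes LRX1 and COBL9 were at 0 in 354 and 356 of them, and the floral genes AP3 and PI at 0 in 340 each. Another floral gene, AG, was at 0 in only 123 libraries, with a median of 3.3 normalized counts and a highest of 60.9.

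The first comparison, of JEPS with fls2 at the same times, asks which transcript levels depended on perception of flg22, since both genotypes were infiltrated. The paralogs PUB22 and PUB23 and the CMPG-type PUB20 were called higher in JEPS at all 6 times after 0 h, PUB24 at all of them but 9 h, PUB21 at 1, 2, 3 and 5 h and PUB12 at 1 h, and PUB13, PUB25 and PUB26 passed the test at no time. A gene was called when its adjusted p was under 0.05 (edgeR, quasi-likelihood test with Benjamini-Hochberg adjustment) and its absolute log2 difference was over 1. Of the 9 members, none was called at 0 h, 6 were called higher at 1 h, 5 at 2, 3 and 5 h, 3 at 9 h and 4 at 18 h, and none was called lower at any time. Among genes past the filter, the share called higher was 0.135% at 0 h and, over the 6 later times in order, 9.03%, 9.92%, 12.4%, 15%, 11.7% and 12.5%. Among all genes with reads it was 0.103% at 0 h and then 5.54%, 5.74%, 7.1%, 8.22%, 6.71% and 6.85%. With another scaling (TMM) the differences of JEPS minus fls2 were up to 0.27 higher in the median over all genes, and of the genes called, 58.3%, 49.8% and 43.9% were higher in JEPS at 1, 2 and 3 h, against 40.9%, 33.3% and 32.7% with the scaling used here.

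**Figure D1:**
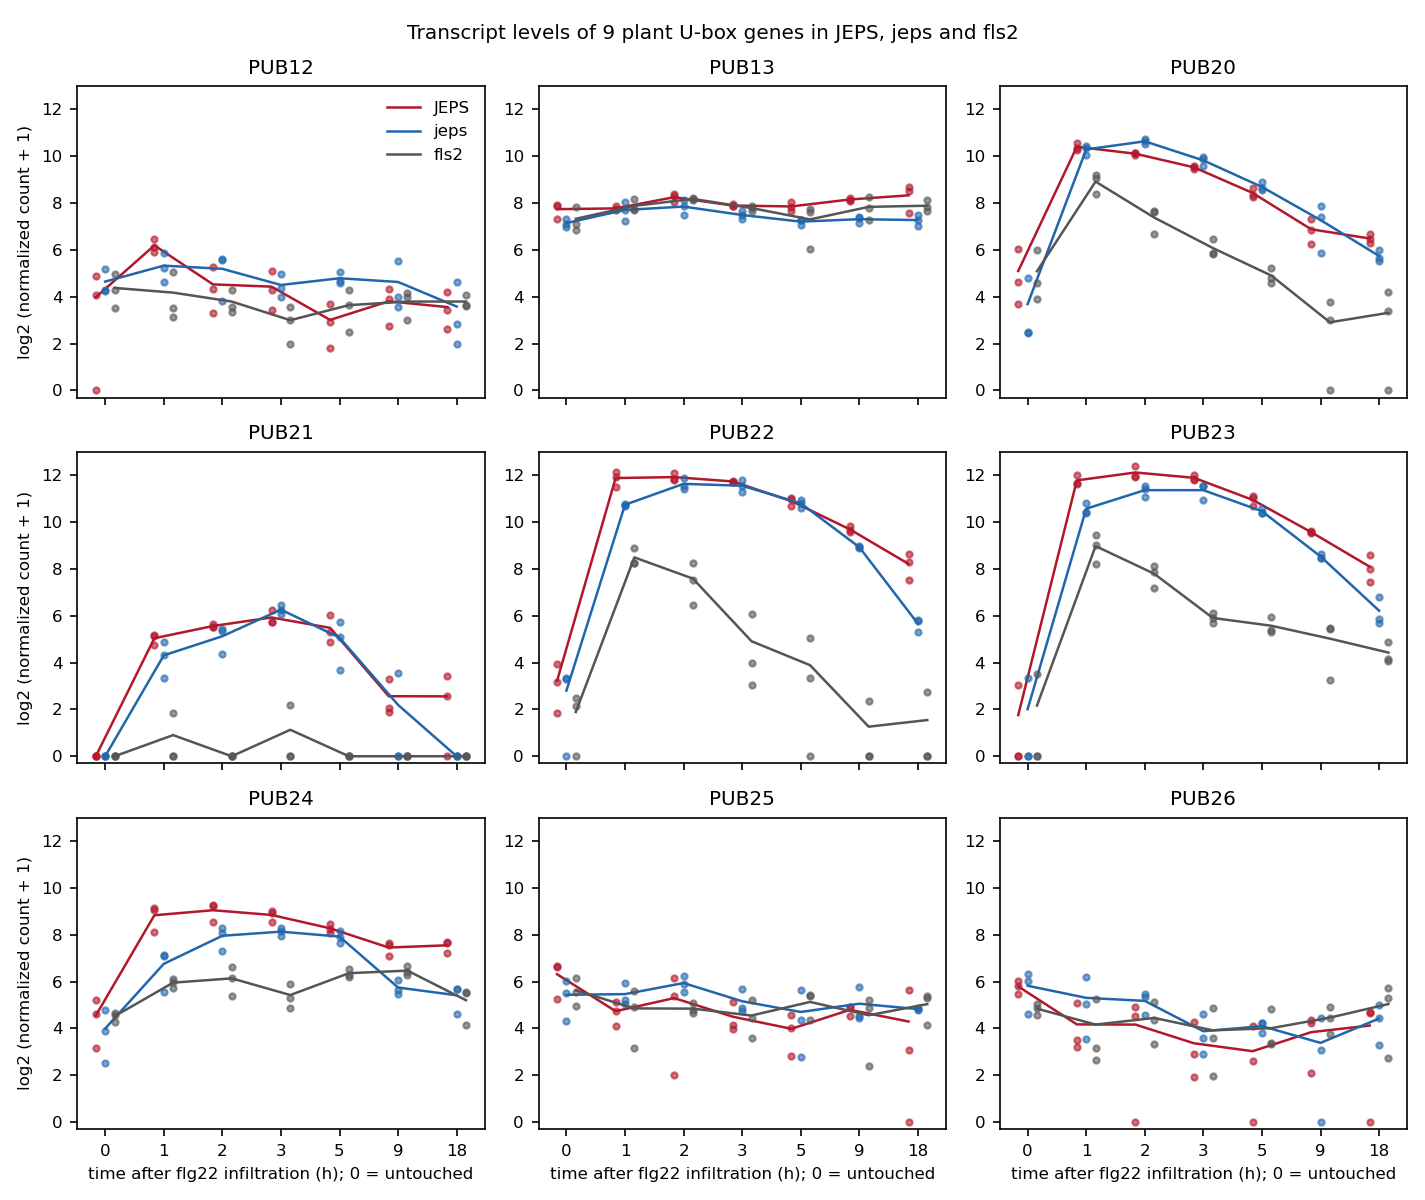
Transcript levels of the 9 PUB genes over time after infiltration with flg22 (x axis, h) in JEPS, jeps and fls2, as log2(normalized count + 1) (y axis); points are libraries (3 per group) and lines join the log2 of the group mean plus 1. In PUB22 the 3 JEPS libraries lie at 4438, 3939 and 2915 normalized counts at 1 h, against 472, 305 and 300 in fls2, whereas the PUB13 groups overlap at most times.

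PUB22 was nearly absent before treatment, with 14.3, 7.89 and 2.63 normalized counts in JEPS on 5 reads and 3.49, 4.62 and 0 in fls2 on 2 reads. At 1 h it had 4438, 3939 and 2915 in JEPS, against 472, 305 and 300 in fls2, a log2 difference of 3.38 (SE 0.288, adjusted p = 2.04e-20). At 3 h it stood at 3393, 3354 and 3468 in JEPS, against 7.14, 14.7 and 65.5 in fls2, a log2 difference of 6.79 (SE 0.357). The fls2 transcript thus had a brief peak at 1 and 2 h and JEPS a long one, and the groups did not overlap at any time after 0 h. At 18 h PUB22 was still at 310, 397 and 182 in JEPS, against 0, 0 and 5.77 in fls2. The 18 h difference rested on 215 reads against 1, a ratio of 178 with a 95% counting interval of 31.7 to 7080, and the 9 h difference on 839 reads against 2, a ratio of 353 with an interval of 97.5 to 2920.

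PUB23 followed PUB22 closely, with 0 h levels that rested on 1 read in JEPS and 3 reads in fls2. At 1 h it had 4062, 3196 and 3286 normalized counts in JEPS, against 689, 291 and 526 in fls2 (log2 difference 2.80, SE 0.267). At 3 h it had 3701, 3599 and 4073 in JEPS, against 50.0, 58.8 and 68.2 in fls2 (log2 difference 5.99, SE 0.3, adjusted p = 2.24e-42). Unlike PUB22 it was detected in all 3 fls2 libraries at every later time, at 16.0, 16.7 and 28.8 at 18 h, against 387, 173 and 255 in JEPS. The log2 difference was accordingly smaller at 18 h for PUB23 (3.75, SE 0.415) than for PUB22 (7.23, SE 1.24), although the difference between the 2 genes was not tested.

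PUB24 was present at a low level before treatment, at 35.7, 7.89 and 23.7 normalized counts in JEPS and 24.4, 18.5 and 22.8 in fls2. At 1 h it had 527, 274 and 562 in JEPS, against 62.6, 51.6 and 68.4 in fls2, a log2 difference of 2.87 (SE 0.321, adjusted p = 1.02e-14). The difference was 2.92 at 2 h, 3.43 at 3 h and 1.92 at 5 h, each called. At 9 h, PUB24 was at 190, 135 and 198 in JEPS, against 76.7, 101 and 83.9 in fls2, and its log2 difference of 0.99 (SE 0.325, adjusted p = 0.0097) fell just short of the fold limit. PUB24 was called again at 18 h (2.31, SE 0.388), where JEPS had 198, 208 and 150 and fls2 44.7, 16.7 and 46.2. The groups did not overlap at any time after 0 h.

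PUB20 was at 1510, 1324 and 1227 normalized counts in JEPS at 1 h, against 582, 530 and 337 in fls2, so that the fls2 leaves also held a large amount of this transcript at that time. The log2 difference was 1.49 at 1 h (SE 0.292, adjusted p = 9.55e-06) and then, in order of time, 2.72, 3.45, 3.56, 3.82 (SE 0.573) and 3.23. At 3 h PUB20 had 743, 703 and 765 in JEPS, against 57.1, 55.9 and 87.3 in fls2. At 18 h it had 87.1, 102 and 77.5 in JEPS, against 9.57, 0 and 17.3 in fls2, and the groups did not overlap.

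PUB21 was listed at 0 in all 9 libraries of JEPS, jeps and fls2 at 0 h. At 1 h it had 34.2, 26.1 and 35.5 normalized counts in JEPS, against 2.61, 0 and 0 in fls2, a ratio of 31.4 on 31 reads against 1 (95% counting interval 5.23 to 1280, adjusted p = 1.4e-05). At 2 h it had 45.0, 49.1 and 44.4 in JEPS and no read in fls2, which makes it at least 15.9-fold higher when a floor of 3 reads over the group stands for 0. Its level in JEPS was highest at 3 h, at 75.7, 52.1 and 51.6 against 3.57, 0 and 0 in fls2 (ratio 57.8 on 73 reads against 1, interval 10.1 to 2320). At 5 h PUB21 was at least 9.91-fold higher, on 44 reads in JEPS against 0 in fls2, and at 9 h it did not pass the test (adjusted p = 0.101), with 2.75, 3.23 and 8.74 in JEPS and 0 in all fls2 libraries. Compared with PUB22 and PUB23, PUB21 therefore had its highest JEPS mean later and was near 0 by 9 h.

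Among the ligases of the receptor itself, PUB12 had 68.5, 88.0 and 60.0 normalized counts at 1 h in JEPS, against 7.83, 32.8 and 10.5 in fls2. The groups did not overlap, and the log2 difference was 2.21 (SE 0.603, adjusted p = 0.00155) on 69 reads against 14, with 1.87 and an adjusted p of 0.107 when replicate 1 was left out. By 18 h PUB12 was at 9.68, 5.08 and 17.5 in JEPS and 16.0, 11.1 and 11.5 in fls2. PUB13 was expressed throughout, at 233, 215 and 207 at 1 h in JEPS and 287, 206 and 213 in fls2. Its log2 differences lay between -0.115 (1 h) and 0.547 (5 h, SE 0.285, adjusted p = 0.133), so that the pair of receptor ligases differed in the 1 h call, a difference between genes that was not tested.

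PUB25 and PUB26, the ligases of BIK1, were not called at any time in this comparison. PUB25 at 5 h had 22.8, 6.06 and 15.4 normalized counts in JEPS and 19.3, 41.2 and 41.5 in fls2, a log2 difference of -1.17 (adjusted p = 0.219). PUB26 at 5 h had 16.3, 0 and 5.13 in JEPS and 27.1, 9.15 and 9.23 in fls2, a log2 difference of -1.13 (adjusted p = 0.479). With so few reads these values have wide errors (SE 0.622 and 0.858), so the lack of a call does not show that the levels were equal.

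The summed level of the 4 mesophyll genes also moved with this comparison. At 1 h the JEPS libraries spanned 39248 to 86547 and the fls2 libraries 48079 to 154341. At 3 h they spanned 26650 to 41077 in JEPS and 54950 to 117039 in fls2, and at 18 h 39768 to 79890 in JEPS and 149244 to 264946 in fls2. At 0 h the ranges were 177171 to 320716 in JEPS and 154519 to 334338 in fls2. All 4 genes were detected in every library, and their part in the PUB differences was not tested.

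The 16 combinatorial genotypes were set beside the same 3 fls2 libraries at each time, as a description with no test. All 16 means of PUB20, PUB22 and PUB23 exceeded the fls2 mean at every time after 0 h. For PUB24 this held in 12 of 16 at 9 h and 15 at 18 h, and for PUB21 in 12 at 18 h. Over the 6 times in order, it held for PUB12 in 16, 14, 16, 12, 10 and 6 genotypes. For PUB13 these counts were 5, 4, 4, 15, 4 and 6. PUB25 had counts of 9, 11, 11, 0, 9 and 7, and PUB26 of 16, 6, 8, 3, 0 and 0. For PUB20, PUB22 and PUB23, each of the 48 combinatorial libraries lay above the highest fls2 library at every time from 1 to 18 h. For PUB24 this held in 46 of 48 libraries at 1 h, in 48 at 2, 3 and 5 h, in 30 at 9 h and in 40 at 18 h. For PUB21 it held in 46 at 1 h, in 48 at 2, 3 and 5 h, in 35 at 9 h and in 19 at 18 h, and for PUB12 in 38 at 1 h. The genotypes lay close together at some times and far apart at others: mean PUB22 levels ran from 2998 (jeps) to 3692 (jEpS) at 3 h, but from 1708 (jeps) to 3890 (JEpS) at 1 h and from 49.6 (jeps) to 338 (JEpS) at 18 h. For PUB24, the means ran from 107 (jeps) to 454 (JEPS) at 1 h and from 23.8 (Jeps) to 186 (JEPS) at 18 h. Mean PUB20 levels ran from 1207 (JEps) to 1642 (jepS) at 1 h and from 737 (JEPS) to 1060 (JepS) at 3 h.

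The second comparison sets each time against the untreated 0 h leaves within JEPS, jeps and fls2. In JEPS, PUB20, PUB22, PUB23 and PUB24 were called higher at all 6 times, PUB21 rose at 1, 2, 3 and 5 h, PUB12 rose at 1 h, and PUB25 and PUB26 fell. The 5 members past the filter gave 66 calls in 90 tests over the 3 genotypes, all but 2 of them higher, and the 4 low members gave 22 calls in 72 tests, of which 9 were higher and 13 lower. Over all genes past the filter, 35.7% of such tests were called in either direction. In JEPS, 19.8%, 22.9%, 22.4%, 22.6%, 20.5% and 16.1% of genes past the filter were called higher, in order of time, and 11.2%, 12.5%, 12.2% and 12.4% of genes with reads at the first 4 times.

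In JEPS the log2 level of PUB22 was above that at 0 h by 9.05, 9.09 and 8.91 in the first 3 h, and then by 8.07, 6.86 and 5.37 at 5, 9 and 18 h. Its level thus stayed nearly flat from 1 to 3 h and declined afterwards. PUB23 was above 0 h by 11.0 at 1 h and by 7.28 at 18 h, but the 0 h level rested on 1 read, which puts the 1 h ratio of 2700 between 484 and 107000 (95% counting interval). PUB24 was above 0 h by 4.42 at 1 h, 4.64 at 2 h and 3.11 at 18 h. PUB20 was highest at the first time, by 5.53 at 1 h, and declined to 1.59 at 18 h. Its calls at 9 and 18 h were lost with the replicate number as a block within each time (1.00 and 0.69, adjusted p = 0.0608 and 0.239), and that at 18 h also without replicate 2 (adjusted p = 0.0556). PUB21 was at least 8.28-, 11.6-, 15.1- and 11.0-fold above 0 h at 1, 2, 3 and 5 h, when a floor of 3 reads stands for 0. PUB12 rose by 2.62 at 1 h (SE 0.69, adjusted p = 0.000413), a call that was lost without replicate 3 (1.88, adjusted p = 0.0563).

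PUB25 and PUB26 went the other way. PUB25 in JEPS had 100, 98.7 and 36.8 normalized counts at 0 h, 34.2, 26.1 and 16.4 at 1 h and 22.8, 6.06 and 15.4 at 5 h, and fell by 2.32 on the log2 scale at 5 h (SE 0.578, adjusted p = 0.000248). PUB26 in JEPS had 64.3, 43.4 and 55.3 at 0 h, 2.8, 18.6 and 6.45 at 3 h and 16.3, 0 and 5.13 at 5 h, and fell by 2.88 at 5 h (SE 0.764, adjusted p = 0.000265). Every 5 h library lay below every 0 h library of its gene. PUB25 was called lower at 1, 3, 5, 9 and 18 h and PUB26 at 1, 2, 3, 5 and 9 h, beside 21%, 19%, 17.5%, 15.2%, 13% and 11% of all genes with reads called lower, in order of time. In fls2 neither gene was called (PUB25 at 5 h, -0.50, adjusted p = 0.677; PUB26 at 5 h, -0.80, adjusted p = 0.554), yet the test of the difference in response between JEPS and fls2 was not passed by PUB25 (-1.82 at 5 h, SE 0.797, adjusted p = 0.137) or PUB26 (-2.08 at 5 h, SE 1.05, adjusted p = 0.221). The lower calls at other times rested on few reads and were lost in part when a replicate was left out or with TMM normalization: PUB25 at 1 h had an adjusted p of 0.112 with TMM, and PUB26 at 1 h one of 0.161.

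In the quadruple mutant jeps, PUB22, PUB23, PUB24 and PUB20 were also called higher at all 6 times. The PUB24 calls at 9 and 18 h were lost without replicate 3 (1.65 and 1.01, adjusted p = 0.064 and 0.285), and the PUB20 call at 18 h (2.43) was lost with the block within each time (1.35, adjusted p = 0.0565). PUB22 in jeps had 8.82, 9.09 and 0 normalized counts at 0 h, 1752, 1655 and 1718 at 1 h, 2970, 2509 and 3515 at 3 h and 39.0, 53.5 and 56.2 at 18 h. Its jeps libraries thus lay below all JEPS libraries at 1, 9 and 18 h but overlapped them at 2, 3 and 5 h. PUB24 in jeps had 139, 45.5 and 136 at 1 h, 243, 287 and 307 at 3 h and 51.0, 23.8 and 50.0 at 18 h, and its log2 level was above 0 h by 3.10, 4.38 and 1.64 at those times. PUB20 in jeps was above 0 h by 6.99 at 1 h and 7.34 at 2 h, with 1688, 1484 and 1605 normalized counts at 2 h, above all 3 JEPS libraries (1053, 1118 and 1138). PUB21 was at least 3.82-, 6.02-, 13.8- and 5.69-fold above 0 h in jeps at 1, 2, 3 and 5 h, and PUB26 fell by 1.99, 1.69 and 2.19 at 3, 5 and 9 h, in calls that were each lost without at least 1 replicate. In jeps, 19.5%, 21.3%, 21.1%, 22.2%, 17.6% and 8.84% of genes past the filter were called higher, in order of time. Of genes with reads, 10.1%, 10.9%, 11% and 11.6% were called higher at the first 4 times, and 15.6%, 14.6% and 9.39% lower at 3, 5 and 9 h.

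In fls2, which lacks the receptor, PUB20, PUB22, PUB23 and PUB24 also rose after infiltration. PUB22 was 141-fold above 0 h at 1 h in the ratio of reads (95% counting interval 38.8 to 1170) and PUB23 138-fold (46.8 to 670), and PUB20 rose by 3.79 (SE 0.377) on the log2 scale and PUB24 by 1.46 (adjusted p = 0.00208, and 0.0534 without replicate 3). PUB20 was called higher at 1 and 2 h only. PUB22 was called higher at 1, 2, 3 and 5 h, but without replicate 3 the 3 h call (3.34) was lost (1.40, adjusted p = 0.288). The 5 h call of PUB22 (2.16, adjusted p = 0.0433) was lost without replicate 3 (adjusted p = 0.979). It was also lost in limma-voom with no block (1.16, adjusted p = 0.249) and with the replicate number as a block (1.16, adjusted p = 0.218). PUB23 was called higher at all 6 times, but its 9 h call (2.92) was lost without replicate 3 (1.81, adjusted p = 0.11) and its 18 h call (2.23) without replicate 2 (1.87, adjusted p = 0.0624), without replicate 3 (1.39, adjusted p = 0.229) and with the block within each time (1.51, adjusted p = 0.0955). PUB24 was called at 1, 2, 5 and 9 h, by 1.85 at 5 h and 1.97 at 9 h. PUB20 was called lower than at 0 h at 9 h (fell by 2.07) and 18 h (fell by 1.89), and both calls were lost without replicate 1 (adjusted p = 0.243 and 0.36), whose 0 h library had 62.8 normalized counts against 13.8 and 22.8 in the others. In fls2, 17.8%, 17.5%, 12.7%, 8.88%, 9.03% and 3.13% of genes were called higher, in order of time, and 7.3% and 1.44% lower at 9 and 18 h.

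The flg22-specific response, i.e. the change from 0 h in JEPS minus that in fls2, removes what both genotypes share. PUB20 passed at all 6 times, by 1.74 at 1 h (SE 0.544, adjusted p = 0.00992, and 0.123 and 0.104 without replicate 1 or 3), 3.70 at 3 h and 4.07 at 9 h. PUB24 passed at every time but 9 h, by 2.95 at 1 h (adjusted p = 4.73e-05) and 3.51 at 3 h (adjusted p = 1.62e-06), and its 5 h call was lost when any 1 replicate was left out. PUB23 passed at all 6 times, by 7.29 at 3 h (adjusted p = 9.48e-05), and PUB22 at 3, 5, 9 and 18 h, by 7.03 at 9 h (adjusted p = 0.00194). PUB22 did not pass at 1 h (2.16, adjusted p = 0.301) or 2 h (3.09, adjusted p = 0.124), with SEs that include those of its 0 h levels, on 5 and 2 reads. It passed at both in limma-voom with the replicate number as a block (2.28, adjusted p = 0.0209, and 3.32, adjusted p = 0.000466). PUB12 passed at 1 h (2.98, SE 0.979, adjusted p = 0.0219), though not without replicate 1 or 3 (adjusted p = 0.056 and 0.699). PUB13, PUB25 and PUB26 passed at no time. PUB21 had no read at 0 h in JEPS or fls2, so its change from 0 h could not be tested between them. In all, the 5 members past the filter gave 21 calls in 30 tests, against 23.2% of tests over all genes, and 6.13%, 6.9%, 9.32%, 11.1%, 9.18% and 9.59% of genes past the filter were called higher, in order of time (2.81% of genes with reads at 1 h). Only 9 of the 21 calls were made without replicate 1, 16 without replicate 2 and 18 without replicate 3, and no PUB22 call passed without replicate 1 or 2. The 9 include none of PUB23, which without replicate 1 had no read at 0 h in JEPS or fls2. Its response test could not be passed there, so the loss says nothing about PUB23. Its calls for the level in JEPS minus fls2 were kept without replicate 1.

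The third comparison asks what each sector contributes, by setting the 8 genotypes with a mutated allele against the 8 with the intact one at each time (24 libraries against 24), with an adjusted p under 0.05 as the only condition. Among the 5 members past the filter, every one of the 37 calls in 140 tests was lower with the mutated allele: 7 of 35 for dde2-2, 15 of 35 for ein2-1, 9 of 35 for pad4-1 and 6 of 35 for sid2-2. Over all genes past the filter, 7.21%, 8.55%, 5.48% and 3.62% of tests were called lower for these alleles, and 6.69%, 12.2%, 5.41% and 4.77% higher. The 4 low members gave 12 calls in 112 tests, of which 4 were higher with dde2-2, 3 higher with ein2-1 and 5 lower with ein2-1. With TMM the share of higher among all calls at 1 h was 44.7% for ein2-1 against 55.3%, 48.3% for dde2-2 against 59.5% and 24% for pad4-1 against 36.4%, and at 2 h 54.7% for ein2-1 against 67%. For pad4-1 it was also 28.8% against 48.1% at 3 h and 41.2% against 52.6% at 5 h. In limma-voom with the replicate number as a block, 6 more effects of the members past the filter were called. Of these, 5 were lower (PUB13 at 1 h and PUB24 at 0 and 5 h for pad4-1, PUB23 at 9 h for ein2-1 and at 18 h for sid2-2) and 1 was higher, that of dde2-2 on PUB20 at 2 h (0.22, adjusted p = 0.0478). The block within each time gave more calls still, counted in the last section without their direction. Both the single direction of the 37 calls and the effects stated below as not called therefore refer to the unpaired fit.

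**Figure D2:**
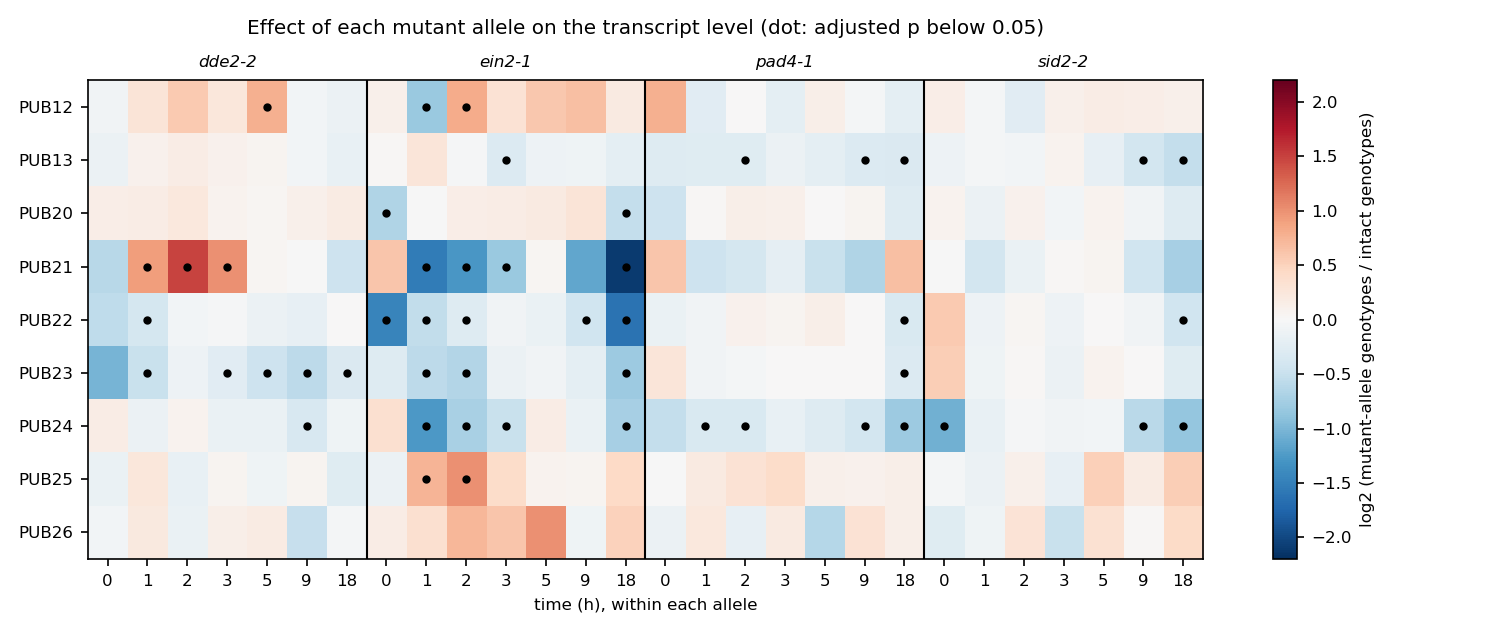
Effect of each mutated allele on the 9 PUB genes (rows) at each time after infiltration in h (columns, in a block for each allele) as the log2 difference of the 8 genotypes with the mutated allele minus the 8 with the intact allele, in colour; a dot marks an adjusted p under 0.05. The dots for the members past the filter lie on negative values only, from -0.256 (PUB23, dde2-2, 3 h) to -1.62 (PUB22, ein2-1, 18 h), and the positive dots belong to PUB12, PUB21 and PUB25.

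The ein2-1 allele, which blocks ethylene signalling, had the most calls. PUB24 at 1 h had a lowest level of 45.5, a median of 164 and a highest of 277 normalized counts in the 24 ein2-1 libraries, against 207, 412 and 577 in the 24 intact ones. It was lower in all 8 pairs of genotypes that differ only in this allele, with a log2 difference of -1.26 (SE 0.106, adjusted p = 1.79e-23), and the 2 sets of libraries overlapped only between 207 and 277. The effect on PUB24 was -0.71 at 2 h and -0.48 at 3 h, was not called at 5 and 9 h, and was -0.73 at 18 h. At 0, 1, 2 and 3 h, 2.29%, 10.4%, 12% and 9.58% of genes past the filter were called lower with ein2-1, and at 9 and 18 h 5.14% and 13.5%.

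PUB22 at 1 h had 1641, 2190 and 3286 (lowest, median and highest) with ein2-1, against 2332, 3222 and 4452 without it, and was lower in 8 of 8 pairs (log2 difference -0.55, adjusted p = 3.63e-06). At 18 h it had 39.0, 88.8 and 249 with ein2-1, against 162, 282 and 424 without it, a log2 difference of -1.62 (SE 0.115, adjusted p = 1.95e-30). Between these times the effect was small, at -0.28 at 2 h (adjusted p = 0.041, a call lost when any 1 replicate was left out and with no filter), not called at 3 and 5 h, and -0.43 at 9 h, so that the ein2-1 and intact genotypes differed mostly at the start and at the end of the course. At 0 h PUB22 was lower with ein2-1 by 1.45 on 13 reads against 31. That call was lost in limma-voom with no block (-0.63, adjusted p = 0.142) and with the replicate number as a block (-0.63, adjusted p = 0.107).

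PUB23 at 1 h had 1215, 1929 and 3375 with ein2-1, against 2134, 3092 and 4558 without it, and at 2 h 2097, 2631 and 3190 against 2913, 3951 and 5429. It was lower in 8 of 8 pairs at both times, with log2 differences of -0.58 (adjusted p = 9.38e-08) and -0.64 (adjusted p = 4.19e-09), and its 18 h effect was -0.79 (adjusted p = 3.03e-11). PUB20 at 18 h had 33.7, 62.9 and 142 with ein2-1, against 51.1, 98.7 and 148 without it (log2 difference -0.53, adjusted p = 0.000799, and 0.0568 without replicate 1, lower in 7 of 8 pairs). The 0 h effect on PUB20 of -0.67 was lost in limma-voom with no block (-0.40, adjusted p = 0.298) and with the replicate block (-0.43, adjusted p = 0.251). PUB20 was not called for ein2-1 from 1 to 9 h in the unpaired fit. Its mean normalized counts at 2 h were 1574 with dde2-2 and ein2-1, 1347 with dde2-2 alone, 1283 with ein2-1 alone and 1215 with neither. In the same order they were 967, 872, 932 and 822 at 3 h, and 1440, 1522, 1345 and 1289 at 1 h.

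Among the low members, PUB21 was also lower with ein2-1. At 1 h it had 0, 16.7 and 51.4 with ein2-1 (lowest, median and highest), against 16.7, 37.6 and 170 without it, and was lower in 8 of 8 pairs (log2 difference -1.54, SE 0.228, adjusted p = 5.53e-11). The effect was -1.28 at 2 h, -0.82 at 3 h and -2.11 at 18 h on 7 reads against 35, which did not pass without replicate 2. Of genes with reads, 5.88%, 6.1%, 4.51% and 6.39% were called lower at these 4 times. PUB12 was lower with ein2-1 at 1 h, at 11.8, 36.9 and 84.6 against 28.6, 66.5 and 127 (log2 difference -0.81, adjusted p = 0.00061), and higher at 2 h (0.82, adjusted p = 0.00495), and both calls were lost without replicate 1 (adjusted p = 0.0793 and 0.282). PUB25 was higher with ein2-1 at 1 h (0.74, adjusted p = 0.00616, and 0.129 and 0.0928 without replicate 1 or 3) and at 2 h, where it had 16.2, 48.9 and 98.9 against 3.0, 23.0 and 70.9 without it (log2 difference 1.01, SE 0.195, adjusted p = 6.38e-06). At these times 5.62% and 11.3% of genes with reads were called higher.

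The level of the receptor transcript itself differed with this allele. FLS2 had a median of 5.6 normalized counts in ein2-1 libraries at 0 h, against 69.5 in intact ones (log2 difference -3.03, adjusted p = 1.38e-24), of 882 against 1330 at 1 h (-0.60), and of 24.4 against 118 at 18 h (-2.0). FLS2 was called lower with ein2-1 at all 7 times, with its smallest difference of -0.47 at 3 h. It was also lower with sid2-2 at 9 h (-0.54, adjusted p = 0.0339) and 18 h (-0.51, adjusted p = 0.0383), and was not called for dde2-2 or pad4-1 at any time. The part of the receptor level in the PUB effects was not tested.

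The dde2-2 allele, which blocks jasmonate synthesis, acted on PUB23 at 5 of 7 times and on PUB21 in the opposite direction. PUB23 at 5 h had 964, 1371 and 1603 (lowest, median and highest) with dde2-2, against 1430, 1885 and 2854 without it, and at 9 h 278, 425 and 609 against 482, 628 and 774. It was lower in 8 of 8 pairs at both times, with log2 differences of -0.46 (adjusted p = 3.67e-05) and -0.57 (adjusted p = 5.64e-07), and at 1 h by -0.50 (SE 0.0932, adjusted p = 8.14e-06), beside 8.25%, 7.46% and 4.54% of genes called lower at 1, 5 and 9 h. Its calls at 3 h (-0.26, adjusted p = 0.0475) and 18 h (-0.33, adjusted p = 0.0167), where 12.8% and 3.29% of genes were called lower, did not pass without replicate 1 (adjusted p = 0.256 and 0.335), nor did that at 3 h without replicate 2 or 3 (adjusted p = 0.0792 and 0.139). Its paralog PUB22 was called for dde2-2 only at 1 h, with 1641, 2350 and 3522 against 1830, 3079 and 4452 (log2 difference -0.39, adjusted p = 0.00197), and that call was lost without replicate 1 (adjusted p = 0.121). PUB24 was called only at 9 h (-0.35, adjusted p = 0.0281), a call that was lost without replicate 1 or 3 (adjusted p = 0.118 and 0.404).

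PUB21 was higher with dde2-2 at 2 h, at 19.8, 75.2 and 178 against 6.19, 22.5 and 76.7 in the intact genotypes, and higher in 8 of 8 pairs (log2 difference 1.49, SE 0.19, adjusted p = 1.23e-13). At 3 h it had 46.9, 114 and 204 with dde2-2, against 7.5, 51.9 and 101 without it (0.998, SE 0.163, adjusted p = 5.67e-08), and at 1 h the difference was 0.93 (adjusted p = 0.000753, and 0.319 without replicate 1). Of all genes with reads, 5.6%, 6.05% and 4.66% were called higher with dde2-2 at 1, 2 and 3 h. PUB12 was higher at 5 h (0.79, adjusted p = 0.0265), a call that did not pass when any 1 replicate was left out, beside 2.89% of genes with reads.

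**Figure D3:**
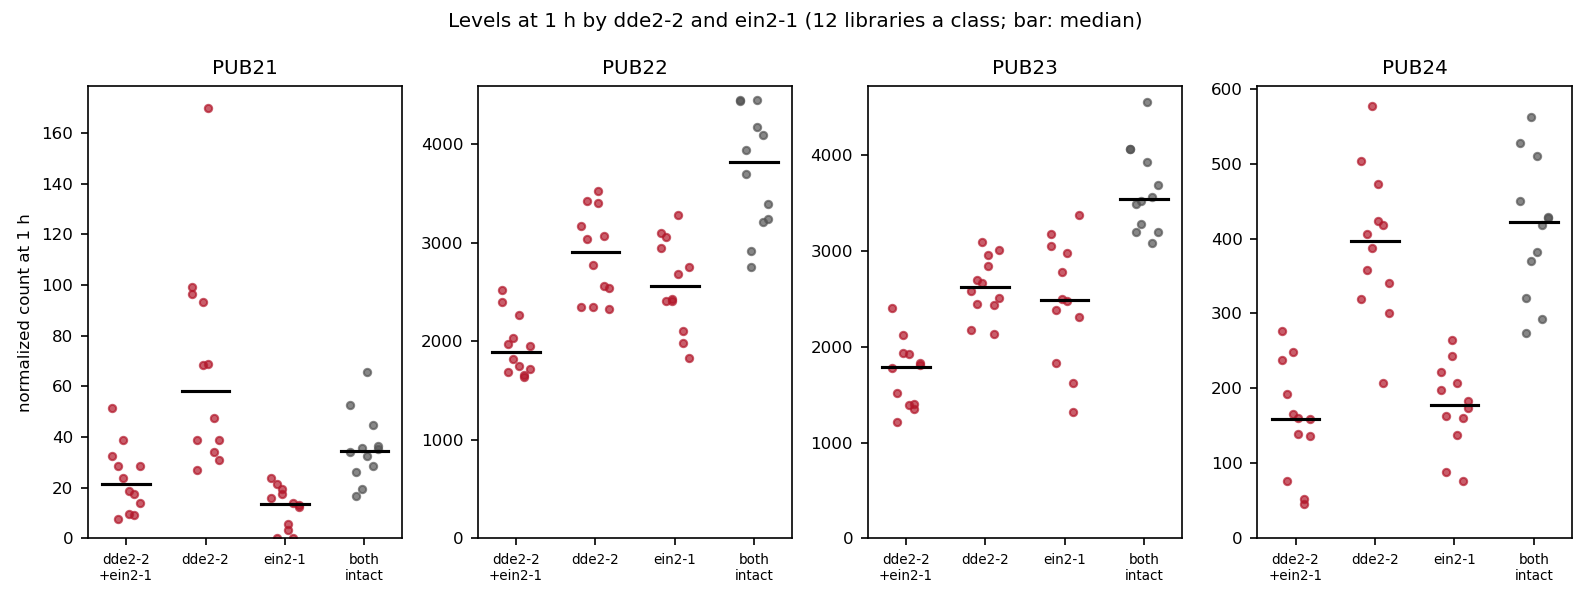
Normalized counts of PUB21, PUB22, PUB23 and PUB24 at 1 h after infiltration (y axis) in the 4 classes of combinatorial genotypes set by the dde2-2 and ein2-1 alleles (x axis), 12 libraries each, with a bar at the median. PUB24 has medians of 159 and 179 in the classes with ein2-1 and of 396 and 422 in those without it, and PUB21 is highest, at a median of 57.9, in the class with dde2-2 alone.

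The classes set by dde2-2 and ein2-1 show how these alleles combined at 1 h (12 libraries each). PUB22 had a median of 1888 with both alleles, 2907 with dde2-2 alone, 2558 with ein2-1 alone and 3817 with neither. All 12 libraries with both alleles (1641 to 2523) lay below all 12 with neither (2759 to 4452). PUB23 was ordered likewise, with medians of 1793, 2624, 2489 and 3545, and its libraries with both alleles (1215 to 2410) lay below all with neither (3086 to 4558). PUB24 was ordered by ein2-1, with medians of 159 and 179 in the 2 classes with ein2-1 and of 396 and 422 in the others. PUB21 had a median of 21.2 with both alleles, 57.9 with dde2-2 alone, 13.5 with ein2-1 alone and 34.7 with neither, and at 3 h 70.3, 173, 44.3 and 60.8. At 3 h the dde2-2 class ranged from 99.0 to 204 and the others from 7.5 to 122, so that PUB21 had its highest median where ethylene signalling was intact and jasmonate synthesis was blocked. At 18 h PUB22 had medians of 91.9 with both alleles and 86.0 with ein2-1 alone, against 293 with dde2-2 alone and 242 with neither.

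The pad4-1 and sid2-2 alleles, which affect the PAD4 and salicylic acid sectors, had most of their calls on PUB13 and PUB24, chiefly at 9 and 18 h. PUB13 at 18 h had 95.7, 186 and 250 (lowest, median and highest) with sid2-2, against 130, 282 and 427 without it, and was lower in 8 of 8 pairs (log2 difference -0.53, SE 0.0993, adjusted p = 6.86e-06). With pad4-1 it had 95.7, 187 and 320 at 18 h, against 142, 228 and 427 without it, also lower in 8 of 8 pairs (-0.33, adjusted p = 0.0126, and 0.21 and 0.052 without replicate 1 or 2). At 9 h the effects on PUB13 were -0.40 for sid2-2 (adjusted p = 0.00144, and 0.0859 without replicate 1) and -0.30 for pad4-1 (adjusted p = 0.0291, and 0.177 and 0.202 without replicate 1 or 3). PUB13 was also called for pad4-1 at 2 h (-0.27, adjusted p = 0.043) and for ein2-1 at 3 h (-0.30, adjusted p = 0.0235), both lost when any 1 replicate was left out. With sid2-2, 7.95% and 12.3% of genes past the filter were called lower at 9 and 18 h, and with pad4-1 3.41%, 8.03% and 11% at 2, 9 and 18 h.

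PUB24 at 18 h had 10.5, 52.6 and 130 with sid2-2, against 36.1, 104 and 219 without it (log2 difference -0.85, adjusted p = 1.23e-08, lower in 7 of 8 pairs). With pad4-1 it had 10.5, 52.6 and 130, against 42.9, 85.9 and 219 without it (-0.80, SE 0.129, adjusted p = 8.85e-08, lower in 8 of 8 pairs). The 9 h effects were -0.60 for sid2-2 (adjusted p = 2.66e-05) and -0.40 for pad4-1 (adjusted p = 0.0096). PUB24 also had early pad4-1 calls, at 1 h (-0.33, adjusted p = 0.0185, beside 4.61% of genes) and 2 h (-0.34, adjusted p = 0.0102), though these and the 9 h pad4-1 call were lost without replicate 1 or 3. It was also lower with sid2-2 in untreated leaves, at 0, 12.1 and 35.8 against 0, 23.2 and 62.7 (log2 difference -1.06, SE 0.252, adjusted p = 0.000183, lower in 8 of 8 pairs), where 1.03% of genes past the filter were called lower.

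**Figure D4:**
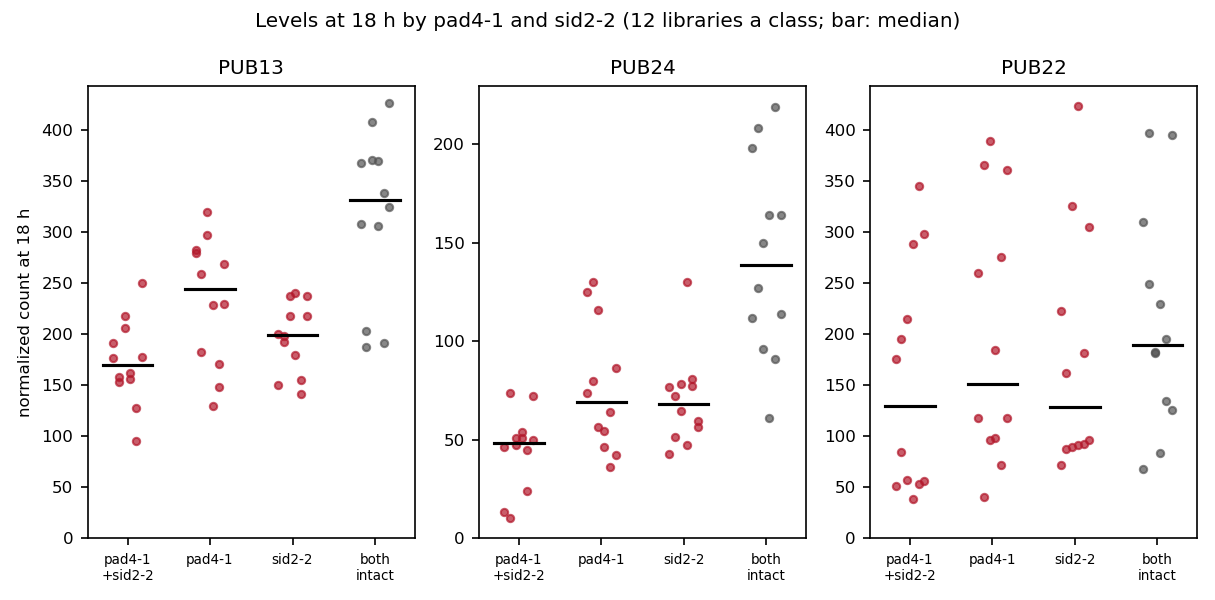
Normalized counts of PUB13, PUB24 and PUB22 at 18 h after infiltration (y axis) in the 4 classes of combinatorial genotypes set by the pad4-1 and sid2-2 alleles (x axis), 12 libraries each, with a bar at the median. PUB24 has a median of 48.6 with both alleles, 69.0 with pad4-1 alone, 68.3 with sid2-2 alone and 139 with neither, and PUB13 has 170, 245, 199 and 332.

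At 18 h PUB24 ranged from 10.5 to 73.7 with both alleles, from 36.1 to 130 with pad4-1 alone, from 42.9 to 130 with sid2-2 alone and from 61.1 to 219 with neither. The single-allele classes thus had similar medians (69.0 and 68.3), between those with both alleles (48.6) and with neither (139). PUB13 ranged from 95.7 to 250 with both alleles, from 130 to 320 with pad4-1 alone, from 142 to 241 with sid2-2 alone and from 188 to 427 with neither. PUB22 and PUB23 had weaker calls at 18 h, PUB22 for sid2-2 (-0.44, adjusted p = 0.00266) and pad4-1 (-0.33, adjusted p = 0.0343), and PUB23 for pad4-1 (-0.30, adjusted p = 0.0289). The pad4-1 effect on PUB22 was lost when any 1 replicate was left out, and that on PUB23 without replicate 1 or 3. PUB20, PUB21, PUB25 and PUB26 were not called for either allele at any time. PUB22 and PAD4 are neighbours on chromosome 3, 6166 bases and 1 gene apart.

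The fourth comparison sets the responses of the 4 single mutants and of jeps against the response of JEPS. The 5 members past the filter gave 2 calls in 150 tests, against 0.493% of tests over all genes, and the 4 low members none in 120, while 32 member tests had an unadjusted p under 0.05. Both calls were of PUB24 in JePS, the ein2-1 single mutant. PUB21 had no read at 0 h in JEPS, jeps or any single mutant, so its responses could not be tested here. PUB24 in JePS had 32.6, 22.8 and 62.7 normalized counts at 0 h, 222, 163 and 243 at 1 h and 244, 173 and 344 at 2 h, against 35.7, 7.89 and 23.7 at 0 h, 527, 274 and 562 at 1 h and 615, 376 and 590 at 2 h in JEPS. The groups overlapped at 0 h and not at 1 or 2 h, and the response in JePS was smaller by a log2 difference of -2.14 at 1 h (SE 0.551, adjusted p = 0.0249) and -2.06 at 2 h (SE 0.548, adjusted p = 0.0344), where 0.346% and 0.532% of genes were called lower. Both calls were lost in limma-voom with no block (-2.14 and -2.12, adjusted p = 0.0917 and 0.0966) and with the replicate number as a block (-2.14 and -2.11, adjusted p = 0.0518 and 0.0553). They were made in limma-voom with the block within each time (adjusted p = 0.00766 and 0.0098). In edgeR they were lost without replicate 1 (adjusted p = 0.171 and 0.245) and without replicate 3 (adjusted p = 1 and 0.977).

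In jeps, the response of PUB22 at 18 h was smaller than in JEPS by a log2 difference of -2.30 (SE 0.982, adjusted p = 0.778) and that of PUB20 at 2 h larger by 2.1 (SE 0.732, adjusted p = 0.19), and neither passed. The SEs show that a response of PUB22 or PUB23 relative to its few 0 h reads could not be compared between genotypes with precision at this depth. The fifth comparison, of the genotypes with a single intact sector (Jeps, jEps, jePs and jepS) with jeps, gave no member call in 120 tests past the filter and none in 96 of the low members (edgeR), with 23 at an unadjusted p under 0.05, and limma-voom also gave none. Over all genes, 0.0615% of these tests were called. PUB21 had no read at 0 h in jeps, jEps, jePs or jepS, so its responses could not be tested between these genotypes.

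Genes known to act with these ligases were followed in the comparison of JEPS with fls2, from a list of 35 receptors, kinases, substrates and conjugating enzymes. At any time after 0 h, 21 of the 35 were called higher in JEPS, with FLS2 among them, and 5 lower, beside 2995 higher and 4656 lower of 11848 genes. FLS2 is the gene disrupted in fls2, so its call follows from the genotype and only checks the label. The co-receptor BAK1 had 1363, 1053 and 1126 normalized counts at 1 h in JEPS, against 522, 277 and 347 in fls2 (log2 difference 1.62, adjusted p = 8.05e-14). BIK1, the substrate of PUB25 and PUB26, had 1616, 1568 and 1124 in JEPS, against 352, 267 and 197 in fls2 (2.40, adjusted p = 7.83e-16), and stayed higher at 18 h (3.12). EXO70B2, the substrate of PUB22, had 1842, 1357 and 815 at 1 h in JEPS, against 383, 277 and 187 in fls2 (2.24, adjusted p = 3.97e-09) and a difference of 3.10 at 3 h. BAK1, BIK1 and EXO70B2 were called higher in JEPS at all 6 times after 0 h and not at 0 h.

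The kinases that act on the ligases were called early. MPK3 had 3726, 2498 and 2168 at 1 h in JEPS, against 1200, 548 and 476 in fls2 (log2 difference 1.91, adjusted p = 7.9e-13), was called at 2 h (1.39) and was under the fold limit at 3 h (0.90). CPK28 had 2175, 1865 and 4001 at 1 h in JEPS, against 926, 666 and 845 in fls2 (1.72, adjusted p = 1.31e-05), and 0.30 at 2 h (adjusted p = 0.607). MYB15, a transcription factor that PUB25 and PUB26 ubiquitinate in the cold, had 4192, 2332 and 2564 at 1 h in JEPS, against 892, 220 and 289 in fls2 (2.68, adjusted p = 7.77e-14), and its difference was 6.11 at 18 h (SE 1.29). The median log2 difference over the list was 0.64 at 1 h and 0.94 at 3 h, beside -0.29 and -0.22 over all genes tested.

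Of 29 other U-box genes, 19 were tested, and at any time after 0 h 12 stood higher in JEPS and 3 lower. Of all 11848 genes past the filter, 2995 were called higher and 4656 lower. PUB27 differed by 4.59 on the log2 scale at 5 h (SE 0.591, adjusted p = 6.49e-17), PUB28 by 4.06 at 5 h (adjusted p = 3.92e-10) and PUB2 by 3.79 at 5 h (adjusted p = 1.39e-12), all higher in JEPS, although PUB28 was also called higher at 0 h (2.81, adjusted p = 0.0274). PUB3 was lower in JEPS, by -3.23 at 9 h (SE 0.575, adjusted p = 1.81e-08), and was called lower from 3 h on. The median of the 19 genes was 0.57 at 1 h and 1 at 3 h. Higher levels in JEPS than in fls2 were thus also found in U-box genes outside the 9 members.

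The shapes of the courses were compared as a description over the mean levels of the 119 groups, which share libraries and the strong time course. PUB22 and PUB23 had a Pearson correlation of 0.981 with each other. Among all genes past the filter, the genes most like PUB22 were WRKY7 (0.983), PUB23 (0.981) and AT1G52200 (0.981), and those most like PUB23 were AT1G52200 (0.982), PIRL2 (0.982) and PUB22 (0.981). PUB20 was most like CK1 (0.976), AT3G02880 (0.975) and AT2G25735 (0.971), and PUB24 most like EDA39 (0.972), AT3G19010 (0.964) and HLECRK (0.955). PUB24 had a correlation of 0.915 with PUB22 and 0.926 with PUB23, and PUB20 one of 0.918 with PUB22, 0.901 with PUB23 and 0.855 with PUB24. PUB13 stood apart, with 0.349 to 0.437 against the other 4 members and no gene above 0.745 (AT4G36210).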

How the data were processed

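Arabidopsis leaf RNA of 357 samples (17 genotypes, 7 times, 3 replicates) was sequenced as stranded Tag-Seq libraries in 23 lanes at 2 sites. The authors trimmed exact barcodes, removed artefact reads, mapped to TAIR10 transcripts with Bowtie 0.12.8, kept forward-strand reads of a single gene, and deposited whole-number read counts per gene and replicate, summed over transcripts and not normalized. Library totals ran from 372525 to 5130803 reads.

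Counts were scaled by the 90th percentile count of each library (set to 300). Genes with fewer than 50 libraries at 0 and a 15th highest count over 25 were kept (11848 of 33600). These are the limits given in the study, which states more genes after them. The reason was not found, and shares of genes past the filter refer to the set kept here. One mean per genotype and time (119 groups, all 357 libraries) was fitted with the quasi-likelihood test of edgeR 4.0.16 in R 4.3.3, which replaces the gene by gene test of the study, with a dispersion trend from 1200 genes. P-values were adjusted by Benjamini-Hochberg over all genes and contrasts of a comparison (113 contrasts in all). A call needed an adjusted p under 0.05 and an absolute log2 value over 1, except for allele effects, where no fold was required. PUB12, PUB21, PUB25 and PUB26 did not pass the filter and were tested in the fit of 26275 genes with reads. Ratios of reads have exact 95% intervals, which cover counting error only, as do floors of 3 reads. Tested on simulated counts of 4000 genes, the fit called 84% of 4-fold changes between JEPS and fls2 at 1 h and 88% of 1.5-fold ein2-1 effects at 1 h, with 3 and 14 false calls. The simulated libraries were independent, with a fixed dispersion and no replicate effect, and p was adjusted within each contrast. These shares can therefore overstate the power in the data.

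The members' AGI codes and the gene lists were chosen with earlier results of these data known. All 9 members were included in every comparison. Of the lists of partners and of other U-box genes, those with known roles or the largest called differences are named. PUB16 was left out, since its code has another name in RefSeq. Positions, names, promoters and protein lengths are from RefSeq (TAIR10.1).

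Replicates with the same number were grown and treated in the same experiments, so the numbers pair the samples. The main fit has no term for this pairing, so calls and statements of no call refer to an unpaired fit unless a block is named. Deviations from group means correlated by 0.291 on average between libraries of the same number and time (99.6% of pairs positive, lowest -0.115). The mean was 0.0602 between libraries of the same number at other times and -0.142 between those of other numbers at the same time. The pairing was thus mostly within a time. The replicate block was fitted as an alternative in limma-voom (limma 3.58.1) only, over all times and within each time. Such a run differs from the main edgeR fit in method as well as in the block. Other alternatives were limma-voom with no block or with a lane term, TMM normalization, no filter, leaving out each replicate, and DESeq2 1.42.0 on 2 genotypes. Python 3.11.15 with pandas 2.3.3, numpy 2.4.6, scipy 1.17.1 and matplotlib 3.10.9 was used for levels, intervals, motifs and figures.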

Additional observations from a re-analysis of the deposited data

Results flagged for a closer look

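The change from 0 h differed between JEPS and fls2, by a test of the difference itself (edgeR, Benjamini-Hochberg adjusted), in 22 cases, and between JePS and JEPS in 2. All values are log2 differences in response and share their 0 h libraries within a gene. PUB20 differed, over the 6 times after 0 h in order, by 1.74, 2.97, 3.70, 3.81, 4.07 and 3.48. PUB22 differed by 5.57, 5.91, 7.03 and 6.01 at the last 4 times. PUB23 differed, likewise in order, by 4.10, 5.61, 7.29, 6.70, 5.83 and 5.05. PUB24 differed by 2.95, 2.99, 3.51 and 2.00 at the first 4 times and by 2.38 at 18 h. PUB12 differed by 2.98 at 1 h. PUB24 in JePS minus JEPS differed by -2.14 at 1 h and -2.06 at 2 h.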

How the results depend on the processing

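Of 189 member results called, 125 passed under every alternative run and 64 were lost under at least 1, chiefly when a replicate was left out, and no called value changed sign. The counts of the 5 members past the filter were most affected in the allele effects (37), at 20 to 31 without a replicate and 58 with the replicate block within time, and in the JEPS minus fls2 response (21), at 9 to 18 without a replicate. The 9 were found without replicate 1, where PUB23 had no 0 h read in JEPS or fls2 and its response could not be tested. For responses of mutants minus JEPS (2) the count was 1 with no filter, 0 with limma-voom without a block, 0 with the replicate block, 0 with a lane term and 0 to 2 without a replicate. With the replicate block in limma-voom, the members gave 23 calls against 21 in the JEPS minus fls2 response, 65 against 66 relative to 0 h and 41 against 37 for alleles. That run removed and added no member calls other than those named in the report, and each call it removed was also lost in limma-voom with no block. The other alternatives added at most 5 member calls each, apart from a lane term and the block within time, which added 25 each. Over all genes, calls summed over contrasts were 16510 for the JEPS minus fls2 response (9230 to 13940 without a replicate) and 44716 for alleles (25379 to 34914 without a replicate, 78422 with the block within time, 72057 with a lane term). They were 1752 for mutants minus JEPS (433 to 832 without a replicate, 2890 with the replicate block, 7667 with the block within time, 6295 with a lane term) and 175 for a single sector minus jeps (45 to 84 without a replicate, 369 with no filter, 694 with the block within time, 773 with a lane term). The cause of these shifts was not tested, apart from the fewer libraries when a replicate was left out. With TMM the median over all genes of a level minus 0 h moved by up to 0.28. Depth limits PUB12, PUB21, PUB25 and PUB26, and the 0 h levels of PUB22 and PUB23. DESeq2 was not run on the allele effects or on a single sector minus jeps.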
